A study of Mus musculus with 27 samples.

Results

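The IgLON family was followed as 5 genes, Iglon5, Lsamp, Negr1, Ntm and Opcml, out of the 55487 genes listed in the count table. A gene was taken as a member when its Ensembl identifier, read without the version, carried one of these symbols in GENCODE release M21. No expression value entered that rule, although the family was chosen with earlier results of these data known. The count table came from a mouse model of anti-IgLON5 disease, in which human antibodies were delivered into the brain and the RNA of 2 brain regions was sequenced. All mice were male wild-type C57Bl/6J animals of 8 weeks, and each carried an osmotic pump that emptied into the right lateral ventricle for 14 days. The infusate was α-IgLON5#1 (polyclonal antibodies against IgLON5, affinity-purified out of patient plasma), pCtrl (human control IgG) or PBS, the antibody-free vehicle. The sources differ on pCtrl, which the labels give as a monoclonal IgG that does not react and the study's methods as IgG from healthy people, so what it contained is uncertain in every comparison with it. Total tissue of the cortex and the hippocampus on the side opposite to the pump gave 27 libraries, namely 5 PBS, 5 pCtrl and 4 α-IgLON5#1 libraries from cortex and 5 PBS, 4 pCtrl and 4 α-IgLON5#1 libraries from hippocampus. Each library came from a single mouse, the number in a library's name was taken as the number of the mouse, and mouse 11 (pCtrl) had a cortical library alone.

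IgLON proteins are small cell adhesion molecules of the immunoglobulin superfamily that are held in the outer leaflet of the membrane by a glycosylphosphatidylinositol (GPI) anchor. They bind one another in pairs of the same or of different members, on neurons above all, and act in neurite outgrowth and in the formation of synapses. IgLON5 is the target of the autoantibodies in anti-IgLON5 disease, whereas LSAMP was first known as a marker of limbic regions, NTM as neurotrimin, OPCML as an opioid-binding protein and NEGR1 as a regulator of neuronal growth.

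On GRCm38, Iglon5 (ENSMUSG00000013367.5) is a compact gene on the minus strand at chr7:43472904-43490075. The relatives are spread far wider, with Lsamp (ENSMUSG00000061080.11) at chr16:39984361-42181679, Negr1 (ENSMUSG00000040037.13) at chr3:156561794-157316445 and Opcml (ENSMUSG00000062257.13) at chr9:27790775-28925410, all on the plus strand. Ntm (ENSMUSG00000059974.10) lies beside Opcml, on the opposite strand, at chr9:28994750-29963141. Other annotated genes overlap the spans of these genes, but 0 of their exon bases fall in an exon of a member. The longest complete coding sequences in GENCODE run from 1008 bases in Iglon5 to 1065 bases in Lsamp. Ntm and Opcml were the most alike, with 69.6% identical bases where their coding sequences align. Iglon5 matched Opcml at 58.1%, Lsamp at 56.3%, Ntm at 55.9% and Negr1 at 52.5% of aligned bases. The stretch below is shown because it holds the longest run of identical coding bases between any pair of members, 45 bases in Ntm and Opcml. Only coding sequences were compared, and whether reads of these genes could be told apart was not tested. Capitals mark that run in Opcml and, in the other genes, every base identical to Opcml in the ungapped in-frame stretch of 78 bases that matches it best. Each stretch is read 5′ to 3′ from the GENCODE transcript and crosses a splice junction, and its ends lie at chr9:28404336-28675134 (plus) for Opcml, chr9:29179254-29411632 (minus) for Ntm, chr16:41533455-41888915 (plus) for Lsamp, chr7:43479233-43480657 (minus) for Iglon5 and chr3:156562276-156859437 (plus) for Negr1.
Opcml: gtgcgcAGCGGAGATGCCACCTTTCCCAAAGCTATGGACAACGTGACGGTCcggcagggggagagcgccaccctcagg
Ntm: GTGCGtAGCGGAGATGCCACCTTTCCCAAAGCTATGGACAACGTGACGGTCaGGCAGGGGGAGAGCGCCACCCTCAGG
Lsamp: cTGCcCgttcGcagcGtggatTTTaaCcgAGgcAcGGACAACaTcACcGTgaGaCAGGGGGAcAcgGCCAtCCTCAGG
Iglon5: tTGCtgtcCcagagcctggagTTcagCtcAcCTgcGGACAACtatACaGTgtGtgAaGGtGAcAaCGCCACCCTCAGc
Negr1: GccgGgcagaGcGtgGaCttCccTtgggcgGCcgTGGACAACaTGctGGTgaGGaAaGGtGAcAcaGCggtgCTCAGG

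In this stretch Ntm shared 76 of 78 bases with Opcml, Lsamp 46, Iglon5 40 and Negr1 39. The longest identical run of every other pair of members was between 11 and 19 bases.

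The libraries held 19385642 to 58550621 counts, and Iglon5, the member with the fewest counts, was counted 541 to 1658 times in a library. Levels are given in CPM, the count of a gene scaled to the effective size of its library, and group values as mean ± SD. The labels give the cell type as neurons, yet all 9 neuronal, 6 astrocyte, 6 oligodendrocyte and 7 microglial marker genes were detected, with summed levels of 6603 to 9531, 4194 to 6498, 1691 to 4580 and 262 to 686 CPM over the 27 libraries. The members' levels are therefore those of whole tissue, in which fewer cells of a type and less RNA per cell cannot be told apart. A pair of hippocampal pCtrl libraries stood apart: the summed level of 6 hippocampal marker genes was 383 CPM in mouse 10 and 257 CPM in mouse 37, against 544 to 1000 CPM in the other 11 hippocampi. Their summed level of 5 cortical marker genes was 283 and 323 CPM, against 142 to 228 CPM in the others. Results that rest on these libraries are given with and without them, an alternative chosen after seeing the data. In another library, the hippocampus of PBS mouse 74, 3 pituitary genes summed to 3833 CPM, against at most 217 CPM elsewhere.

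The first question was whether the transcript of the antibody target changed. It did not differ detectably between treatments in either region. In hippocampus, Iglon5 stood at 26.5, 27.2, 29.4 and 30.5 CPM after α-IgLON5#1, at 25.5, 25.7, 28.5 and 28.7 CPM after pCtrl, and at 24.9, 26.1, 27.2, 30.6 and 30.6 CPM after PBS. The 3 groups overlapped almost fully, with means of 28.4 ± 1.86 (n = 4), 27.1 ± 1.72 (n = 4) and 27.9 ± 2.58 CPM (n = 5). In the edgeR quasi-likelihood fit over all 20271 tested genes, the log2 fold change of α-IgLON5#1 over pCtrl was 0.06 with a 95% interval of -0.13 to 0.26 (adjusted p = 0.752, Benjamini-Hochberg). This interval spans a change from -8.84% to 19.9%. Over PBS the log2 fold change was 0.02, with an interval of -0.16 to 0.21 (edgeR, adjusted p = 0.951).

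The cortex gave the same picture, with Iglon5 at 27.4, 28.1, 29.7 and 35.7 CPM after α-IgLON5#1, 27, 28.3, 29.3, 32.0 and 32.7 CPM after pCtrl, and 27.8, 28.7, 28.9, 29.4 and 37.8 CPM after PBS. A single high library stood at the top of the PBS and of the α-IgLON5#1 group, while the remaining values lay close together. The log2 fold change over pCtrl was 0.02, with an interval of -0.17 to 0.21, or -10.9% to 15.3% (edgeR, adjusted p = 0.951). Over PBS it was -0.01, with an interval of -0.20 to 0.17.

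**Figure D1:**
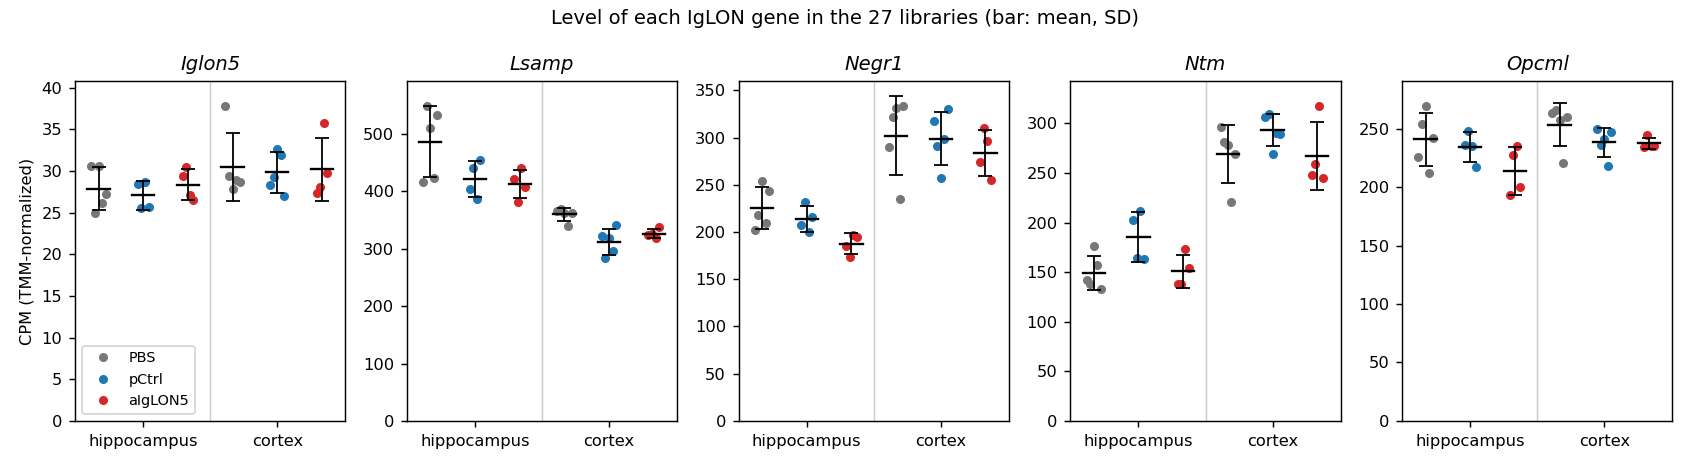
Level of each IgLON gene in CPM (y axes) in every library, with hippocampal and cortical groups side by side; each point is the library of 1 mouse, bars give the mean and SD of the group, and aIgLON5 stands for α-IgLON5#1. Iglon5 stays between 24.9 and 37.8 CPM in all 27 libraries, while Ntm and Negr1 are lower and Lsamp is higher in hippocampus than in cortex.

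None of the relatives passed the threshold of an adjusted p under 0.05 after treatment either. Over 30 comparisons, 5 genes in 3 contrasts of each region, edgeR called 0, 7 had an unadjusted p under 0.05, DESeq2 called 1, and the smallest edgeR adjusted p was 0.0682. The log2 fold changes lay between -0.30 and 0.31, and the 95% intervals together ran from -0.51 to 0.52. The share of all genes called was small too, so 0 of 5 lies near that background. α-IgLON5#1 against pCtrl moved 7.01% of all tested genes in hippocampus and 3.46% in cortex, and against PBS it moved 4.29% and 3.05%. Without pCtrl mice 10 and 37 the first of these shares was 1.2% (244 genes). The 2 control infusions differed at 0.192% of genes in hippocampus, 39 genes by edgeR and 538 by DESeq2, and edgeR called 0 genes without mice 10 and 37. They differed at 0.0% in cortex, where edgeR called 0 genes, 1650 had an unadjusted p under 0.05 and DESeq2 called 11.

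**Figure D2:**
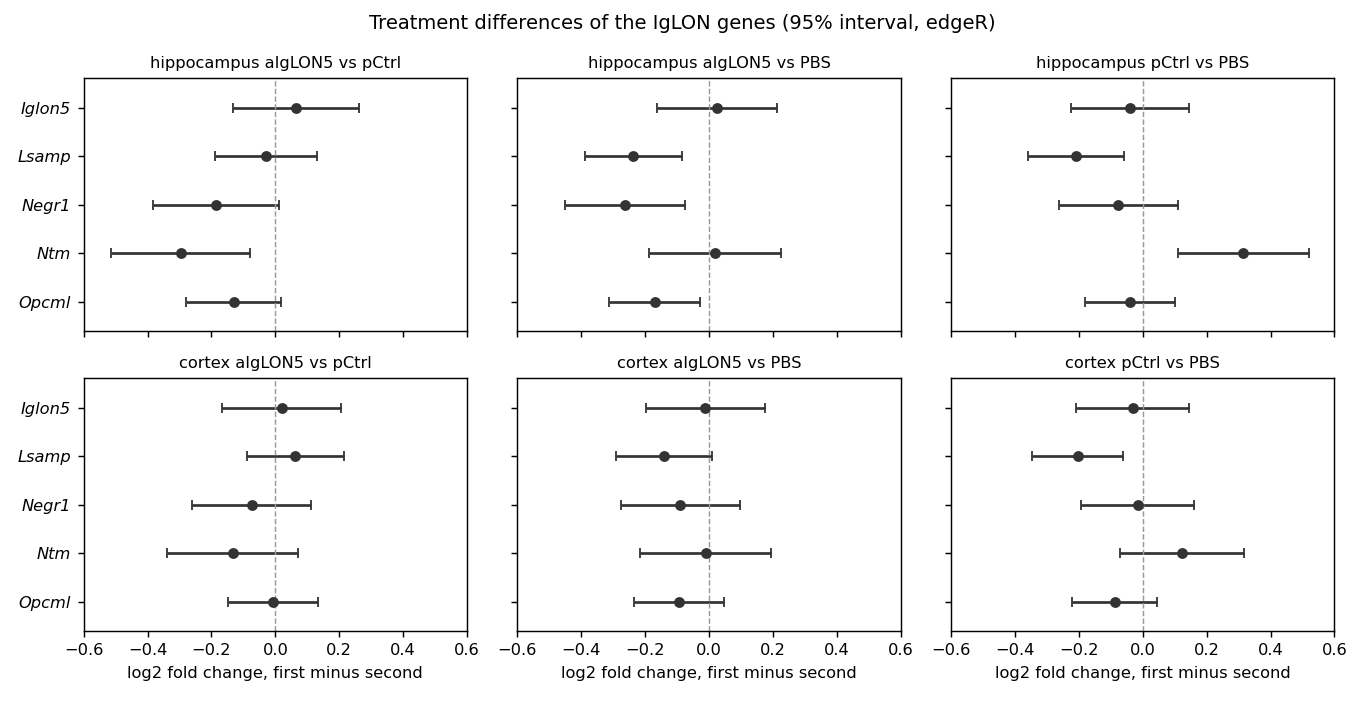
Log2 fold change (x axis) of the 5 IgLON genes in the 3 treatment contrasts of each region, as edgeR estimates with 95% confidence intervals; aIgLON5 stands for α-IgLON5#1 and the vertical line marks no change. The estimates lie between -0.30 and 0.31, and 0 of 30 passed an adjusted p of 0.05.

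Lsamp, a guide of limbic connections, was nearest to the threshold, in the hippocampus. Its hippocampal levels were 382, 407, 422 and 441 CPM after α-IgLON5#1, and 417, 424, 510.5, 534 and 549 CPM after PBS. The PBS group was split, with mice 14 and 38 inside the range of the treated mice and 3 mice well above it. The log2 fold change was -0.24, with an interval of -0.39 to -0.09 (edgeR, adjusted p = 0.0682), and DESeq2 called it (adjusted p = 0.0274). The pCtrl hippocampi, at 388, 403, 440.1 and 455 CPM, gave a similar difference from PBS of -0.21 (edgeR, adjusted p = 0.167), which was -0.13 without mice 10 and 37. Between α-IgLON5#1 and pCtrl the Lsamp difference was -0.03 (edgeR, adjusted p = 0.872). Both antibody infusions thus lay on the same side of PBS, in comparisons that share the PBS libraries.

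In cortex, Lsamp was again lower in both antibody groups than in PBS. It measured 319, 323, 325 and 338 CPM after α-IgLON5#1, 283, 295, 319.7, 323 and 341 CPM after pCtrl, and 340.1, 362, 363, 365 and 369 CPM after PBS. The α-IgLON5#1 and PBS ranges did not overlap, but the gap was narrow, 338 against 340.1 CPM in PBS mouse 38. The share of all genes without overlap in this contrast is not given here. The log2 fold changes from PBS were -0.14 for α-IgLON5#1 (edgeR, adjusted p = 0.594) and -0.20 for pCtrl (edgeR, adjusted p = 0.436).

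Negr1 was the member whose α-IgLON5#1 hippocampi lay below every control hippocampus. They measured 174, 185, 195 and 197 CPM, whereas pCtrl measured 199.6, 207, 216 and 232 CPM and PBS 203, 209, 218, 243 and 254 CPM. The gap between the groups was narrow, 197 against 199.6 CPM at the nearest, and the share of all genes separated in this way is not given here. The log2 fold change was -0.19 from pCtrl (edgeR, adjusted p = 0.262) and -0.26 from PBS, with an interval of -0.45 to -0.07 (edgeR, adjusted p = 0.119), so neither passed where 7.01% and 4.29% of all genes did. Without pCtrl mice 10 and 37 the difference from pCtrl was -0.25 (edgeR, adjusted p = 0.431). The neuronal markers ran with it in sum, at 6603 to 7178 CPM after α-IgLON5#1, 7126 to 8120 CPM after pCtrl and 6980 to 7883 CPM after PBS. None of the 9 was at 0, and 2 of 9 were called lower against pCtrl and 1 of 9 against PBS. On the log2 scale, single neuronal markers lay between -0.34 and 0.09 against pCtrl and between -0.22 and 0.04 against PBS. Against pCtrl 0 of 9 were called without mice 10 and 37, with a median log2 fold change of -0.13 in place of -0.18. The 7 microglial markers ran the other way in sum, at 383 to 686 CPM after α-IgLON5#1 against 262 to 335 CPM in both control groups. Of these, 6 of 7 were called higher against each control, and 4 of 7 against pCtrl without mice 10 and 37. The microglial marker not called was lower, at -0.37 against pCtrl and -0.31 against PBS on the log2 scale. The part of the neuronal and microglial markers in the Negr1 levels was not tested. In cortex the Negr1 groups overlapped, with means of 284 ± 24.5 (n = 4), 299 ± 28 (n = 5) and 302 ± 41.6 CPM (n = 5) for α-IgLON5#1, pCtrl and PBS.

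Ntm gave the largest estimates of the family in hippocampus, and these came from the pCtrl side. It measured 138, 138, 154 and 173 CPM after α-IgLON5#1, 164, 164, 203 and 212 CPM after pCtrl, and 133, 138, 142, 157 and 176 CPM after PBS. The top pair were the pCtrl mice 10 and 37, whose hippocampi stood apart in the region markers. With all libraries, Ntm differed by -0.30 between α-IgLON5#1 and pCtrl (interval -0.51 to -0.08; edgeR, adjusted p = 0.0884) and by 0.31 between pCtrl and PBS (edgeR, adjusted p = 0.125). With those mice left out, the differences were -0.11 (edgeR, adjusted p = 0.801) and 0.13.

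The place of those libraries was followed with a composition score, the mean log2 CPM of 100 genes higher in hippocampus minus that of 100 genes higher in cortex, chosen from the PBS libraries without the members. It was -0.81 in the hippocampus of pCtrl mouse 37 and -0.12 in that of mouse 10, and 0.74 to 1.73 in the other 11 hippocampi. The 14 cortices lay between -2.85 and -1.83. With the score as a covariate, the Ntm differences between α-IgLON5#1 and pCtrl and between pCtrl and PBS were 0.0030 and -0.015 on the log2 scale. The same covariate left Lsamp at -0.23 (edgeR, adjusted p = 0.0697) and Negr1 at -0.26 (edgeR, adjusted p = 0.118) against PBS in hippocampus. Iglon5 between α-IgLON5#1 and pCtrl in hippocampus was 0.16 with the covariate (edgeR, adjusted p = 0.689) and 0.15 with the mice left out (edgeR, adjusted p = 0.730).

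**Figure D3:**
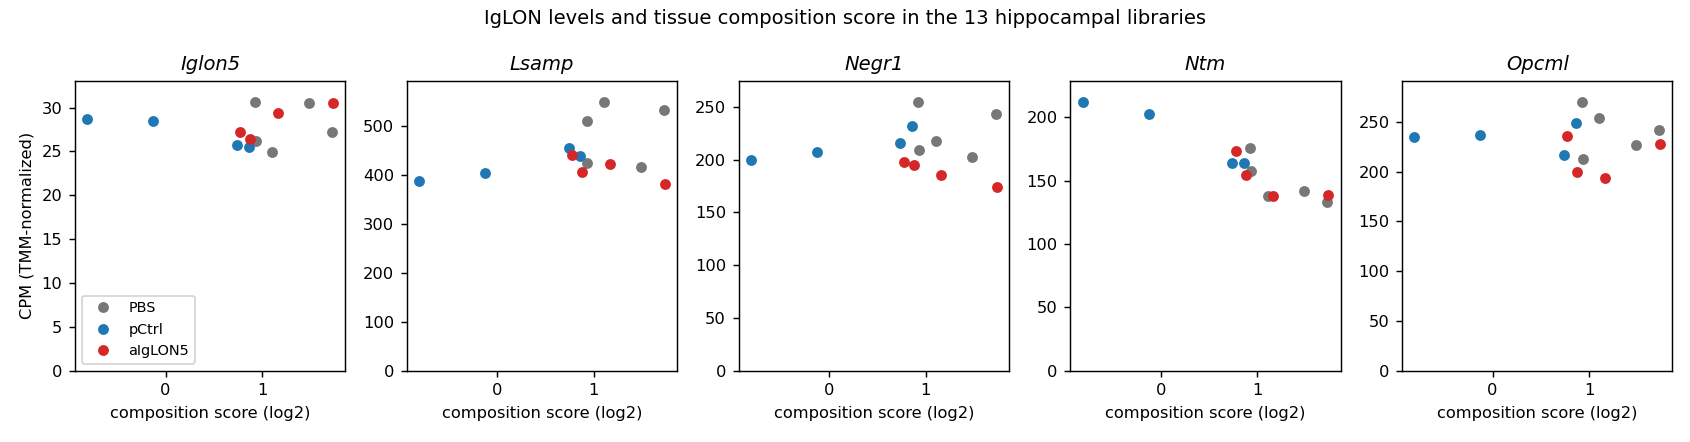
Level of each IgLON gene in CPM (y axes) against the tissue composition score (x axis, log2 units, higher towards hippocampus) in the 13 hippocampal libraries. Points are coloured by treatment, and aIgLON5 stands for α-IgLON5#1. The pCtrl libraries of mice 10 (-0.12) and 37 (-0.81) have the lowest scores and the highest Ntm levels of the 13 hippocampi, 203 and 212 CPM.

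Opcml varied little. It ranged from 194 to 235 CPM after α-IgLON5#1, 217 to 248 CPM after pCtrl and 212 to 269 CPM after PBS in hippocampus, and from 234 to 245, 218 to 249 and 221 to 266 CPM in cortex. Its widest treatment estimate was -0.17, for α-IgLON5#1 against PBS in hippocampus (edgeR, adjusted p = 0.205). The SD of log2 CPM within groups was 0.10 for Opcml, 0.11 for Lsamp, 0.14 for Iglon5 and Negr1 and 0.16 for Ntm, against a median of 0.19 over all tested genes and of 0.11 over tested genes with a mean log2 CPM above 4, to which all 5 belong. Opcml lay just below the median of the genes of like level, Lsamp just above it, and Iglon5, Negr1 and Ntm further above it.

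Whether treatment acted differently in the regions was tested as an interaction. Over all genes, 0.0% passed for α-IgLON5#1 against pCtrl, where edgeR called 0 genes, 2158 had an unadjusted p under 0.05 and DESeq2 called 36, and 0.00493% passed against PBS. For the members the interaction lay between -0.17 and 0.04 on the log2 scale, and edgeR called 0 of 5 in each, with 0 at an unadjusted p under 0.05 and 0 by DESeq2.

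In contrast to treatment, brain region separated 3 of the 5 members in every treatment group. Hippocampus and cortex differed at 26.7% of tested genes in PBS, 19.9% in pCtrl and 23.9% in α-IgLON5#1 mice, and 3 of 5 members were called in each, Lsamp higher and Negr1 and Ntm lower in hippocampus. Ntm differed most. Its log2 difference of hippocampus from cortex was -0.85 in PBS, -0.66 in pCtrl and -0.82 in α-IgLON5#1 mice (edgeR, adjusted p = 1.78e-07, 2.91e-05 and 2.56e-06). The cortical Ntm levels ran from 221 to 317 CPM, and the regions did not overlap in any treatment group. Without the hippocampi of mice 10 and 37 the pCtrl difference of Ntm was -0.84, and the same count of 3 members was called.

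Negr1 differed by -0.42, -0.48 and -0.60 in PBS, pCtrl and α-IgLON5#1 mice (edgeR, adjusted p = 4.30e-04, 3.45e-04 and 4.38e-05). In cortex it measured 235, 290.3, 322, 331 and 333 CPM after PBS, 257, 291, 299, 317 and 331 CPM after pCtrl and 255, 274, 296 and 311 CPM after α-IgLON5#1. The regions overlapped for Negr1 in PBS mice alone, through the cortex of mouse 38 at 235 CPM. Lsamp was the one member higher in hippocampus, by 0.44, 0.43 and 0.34 (edgeR, adjusted p = 2.41e-05, 9.36e-05 and 0.0018), with no overlap in any treatment group. Iglon5 was -0.13, -0.14 and -0.10 and Opcml -0.07, -0.03 and -0.15 from cortex, and neither passed in any group (edgeR, lowest adjusted p = 0.289 and 0.143).

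The pair of regions from a single mouse gave the same order. In 13 of 13 mice Lsamp was higher in hippocampus, by 0.19 to 0.57 on the log2 scale with a median of 0.39. Ntm was lower in 13 of 13 mice, with differences of -1.07 to -0.46 and a median of -0.82, and Negr1 in 13 of 13, with -0.84 to -0.15 and a median of -0.57. Iglon5 was lower in hippocampus in 9 mice and higher in 4, with a median of -0.15, and Opcml was also lower in 9 and higher in 4, with a median of -0.08. These 2 members thus changed side from mouse to mouse, which the other 3 did not.

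**Figure D4:**
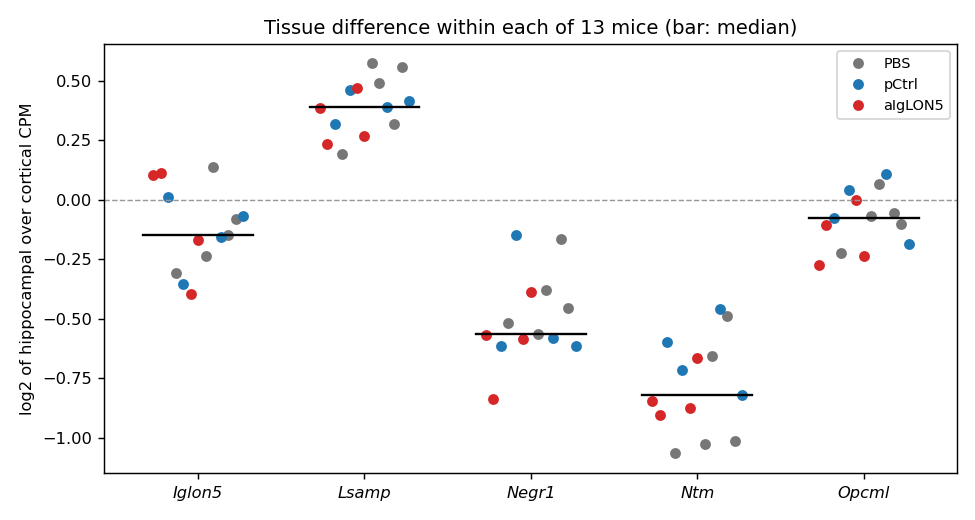
Difference of log2 CPM, hippocampus minus cortex (y axis), for each IgLON gene in the 13 mice with both libraries; each point is 1 mouse, coloured by treatment, and aIgLON5 stands for α-IgLON5#1. All 13 mice are above 0 for Lsamp and below 0 for Negr1 and Ntm, and Iglon5 and Opcml have mice on both sides.

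Levels can be compared between the genes only per length. Per kilobase of summed exon length, Iglon5 was the lowest member in all 6 groups, at 10.3 to 11.6 CPM per kb. In the PBS cortex the order was Ntm 33.3, Negr1 28.8, Lsamp 20.9, Opcml 17.5 and Iglon5 11.6 CPM per kb. In the PBS hippocampus it was Lsamp 28.3, Negr1 21.4, Ntm 18.5, Opcml 16.6 and Iglon5 10.6 CPM per kb. Ntm thus led in the 3 cortical and Lsamp in the 3 hippocampal groups. Not every neighbour in this order was apart: the ranges of Ntm and Negr1 overlapped in PBS cortex, and those of Negr1 and Ntm and of Ntm and Opcml overlapped in PBS hippocampus. In pCtrl hippocampus the leading pair overlapped, with Lsamp at 24.5 and Ntm at 23 CPM per kb. As a share of the family's summed level per kb, Ntm had a median of 30.6% in cortex and 21.4% in hippocampus, and Lsamp 17.8% and 27.8%. Iglon5 made up a median of 10.2% in cortex and 11.3% in hippocampus. Where the longest transcript set the length, the median Iglon5 share was 4.80% in cortex and 5.49% in hippocampus. Iglon5 stayed lowest in 6 of 6 groups by that length, but Ntm led in 5 groups and Lsamp in 1, with Ntm at 47.1 to 92.6 and Lsamp at 35.5 to 55.4 CPM per kb.

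**Figure D5:**
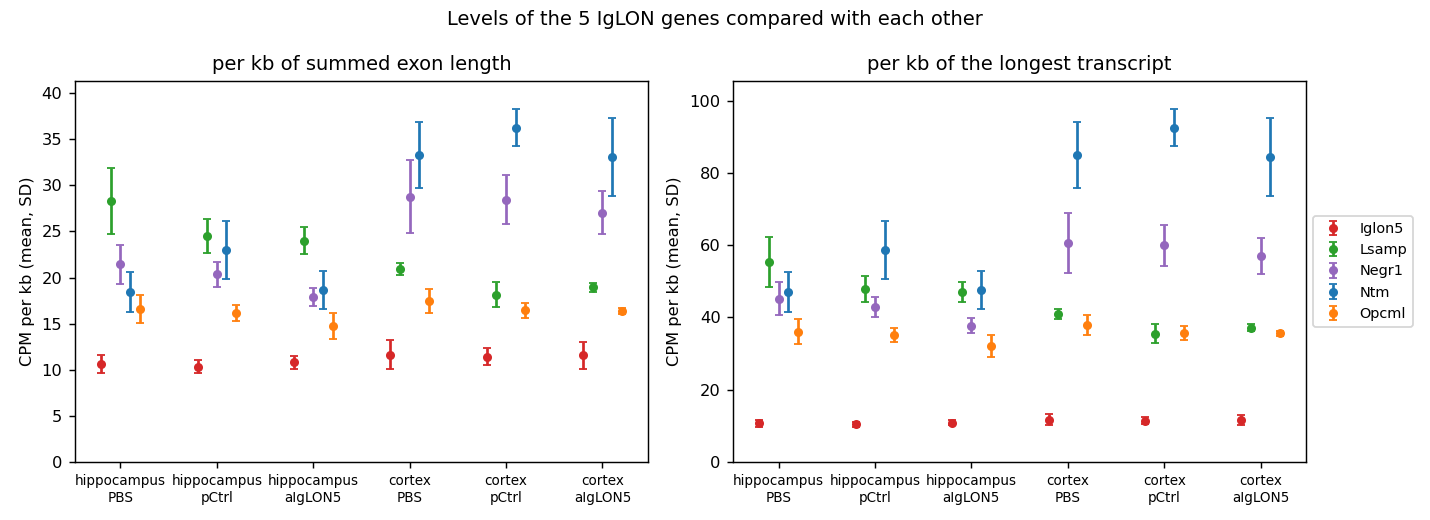
Mean level of the IgLON genes in CPM per kb (y axes) in the 6 groups, with error bars for the SD over libraries, per kb of summed exon length and per kb of the longest transcript; aIgLON5 stands for α-IgLON5#1. Iglon5 is lowest in all 6 groups by either length, at 10.3 to 11.6 CPM per kb, and the order of the others depends on the length used.

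The genes around the family were followed in 4 lists. The first pair of lists, 15 adhesion proteins and 8 channel and receptor subunits, came from the surface proteins that the study grouped with IgLON5. In hippocampus, 1 of 15 adhesion genes was called higher and 0 lower for α-IgLON5#1 against pCtrl, where 7.01% of all genes were called. The list's median log2 fold change was -0.17 beside 0.00 over all genes, and without pCtrl mice 10 and 37 it was -0.04 with 0 called. The called gene was Itga7, a laminin-binding integrin subunit, at 20.8 ± 3.09 CPM after α-IgLON5#1, 14.2 ± 1.76 CPM after pCtrl and 17.2 ± 2.96 CPM after PBS. Its log2 fold change against pCtrl was 0.54 (edgeR, adjusted p = 0.0213), which was 0.45 without mice 10 and 37 (edgeR, adjusted p = 0.322), and with single libraries left out the call was lost without α-IgLON5#1 mouse 8 (0.44), α-IgLON5#1 mouse 9 (0.55) or pCtrl mouse 37 (0.46). Against PBS, Itga7 was at 0.27 (edgeR, adjusted p = 0.356), and edgeR called 0 of 15 and 4.29% of all genes, with 4 of the 15 at an unadjusted p under 0.05 and 0 by DESeq2.

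Of the 8 subunits 0 were called in hippocampus against pCtrl, where 7.01% of all genes were called, with a median of -0.14, which was -0.10 without mice 10 and 37 and -0.06 against PBS. The smallest p-values were those of the kainate receptor subunit Grik3 at -0.47 (edgeR, adjusted p = 0.0547) and the potassium channel Kcnn3 at -0.32 (edgeR, adjusted p = 0.0904). Without mice 10 and 37 they were at -0.23 and -0.25, and against PBS at -0.17 and -0.23. Grik3 stood at 81.0 ± 16.9 CPM after α-IgLON5#1, 112.6 ± 21.3 CPM after pCtrl and 91.2 ± 18.4 CPM after PBS, so pCtrl was the high group. DESeq2 called 3 of 15 adhesion genes and 1 of 8 subunits against pCtrl here, and an unadjusted p under 0.05 was reached by 8 and 5. In cortex edgeR called 0 of 15 adhesion genes and 0 of 8 subunits, an unadjusted p under 0.05 was reached by 1 and 2, and DESeq2 called 0 and 1, where edgeR called 3.46% of all genes. Without the hippocampi of mice 10 and 37, which also enter the fit shared by all groups, edgeR called 0 of 15 and 1 of 8 in cortex, where 3.29% of all genes were called. The cortical adhesion genes with the smallest p-values were the fibronectin receptor subunit Itga5 at 0.83 and the cadherin Cdh6 at -0.36 (edgeR, adjusted p = 0.243 and 0.384). The Itga5 value rested on the cortex of α-IgLON5#1 mouse 8, at 15.2 CPM, and was 0.27 without it (edgeR, adjusted p = 0.823). Among the subunits, the calcium channel subunit Cacna2d3 was at -0.14 (edgeR, adjusted p = 0.231).

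The third list was drawn up as other GPI-anchored neuronal surface proteins, 22 of which were tested. In whole tissue, the cells that expressed them cannot be told. In hippocampus against pCtrl, 3 were called higher and 3 lower, with a median of 0.02, where 7.01% of all genes were called. Without mice 10 and 37, 1 was called higher and 0 lower, where 1.2% of all genes were called. Against PBS, which does not use those mice, 1 was called higher and 1 lower, where 4.29% of all genes were called. Ly6e, a small GPI-anchored protein induced by interferon, rose by 0.43 (edgeR, adjusted p = 0.0013), from 104.7 ± 3.47 CPM after pCtrl to 141 ± 10.6 CPM after α-IgLON5#1, beside 110.2 ± 11.2 CPM after PBS. It was still called without mice 10 and 37 (0.42, adjusted p = 0.036), with the composition score (0.45, adjusted p = 0.021), against PBS (0.35, adjusted p = 0.0040) and, in both contrasts, without any 1 hippocampal library of the groups compared.

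The MDGA proteins bind neuroligins at synapses. Hippocampal Mdga1 was 72.0 ± 18.1 CPM after α-IgLON5#1, 54.1 ± 6.48 CPM after pCtrl and 63.6 ± 4.41 CPM after PBS, 0.41 higher than pCtrl on the log2 scale (edgeR, adjusted p = 0.0371) and 0.17 from PBS (edgeR, adjusted p = 0.512). The hippocampus of α-IgLON5#1 mouse 9 held 97.3 CPM, and without it Mdga1 was at 0.23 against pCtrl (edgeR, adjusted p = 0.245). The Mdga1 call was also lost without pCtrl mouse 10 (0.39), mouse 37 (0.36) or mouse 75 (0.39). Mdga2 fell by 0.34 against pCtrl (edgeR, adjusted p = 0.0189) and by 0.34 against PBS (edgeR, adjusted p = 0.012). The call against pCtrl was lost without α-IgLON5#1 mouse 8 (-0.32), mouse 9 (-0.28) or mouse 17 (-0.31) or pCtrl mouse 10 (-0.32), and that against PBS without PBS mouse 33 or α-IgLON5#1 mouse 8, 9 or 17, with adjusted p up to 0.0530.

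The axon guidance ligand Efna5 fell by 0.79 against pCtrl, from 11.8 ± 2.86 to 6.71 ± 2.08 CPM (edgeR, adjusted p = 0.028), and was at -0.67 against PBS (edgeR, adjusted p = 0.070). Its call was lost without α-IgLON5#1 mouse 8 (-0.77) or mouse 9 (-0.63) or pCtrl mouse 10 (-0.73) or mouse 37 (-0.65), and against PBS it was called without PBS mouse 14 or α-IgLON5#1 mouse 16. With 2 pCtrl hippocampi left after mice 10 and 37 were taken out, Mdga1 was at 0.32, Mdga2 at -0.32 and Efna5 at -0.46 against pCtrl (edgeR, adjusted p = 0.449, 0.211 and 0.540). In cortex 1 of 22 was called against pCtrl, where 3.46% of all genes were called, and none with the composition score. It was Mdga1 at 0.41 (edgeR, adjusted p = 0.0434), which was called in 1 of 9 fits with 1 library left out, at 0.38 to 0.47, the one without pCtrl mouse 15, and was at 0.33 with the composition score (edgeR, adjusted p = 0.180). Cortical Mdga1 was 35.5 ± 2.01 CPM after α-IgLON5#1, 26.6 ± 2.48 CPM after pCtrl and 35.0 ± 4.05 CPM after PBS, so pCtrl was the low group. Against PBS in cortex, where 3.05% of all genes were called, edgeR called 0 of 22, with 2 at an unadjusted p under 0.05 and 1 by DESeq2.

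The fourth list, the enzymes that build and remodel the GPI anchor itself, had 1 of 26 called in hippocampus against pCtrl, where 7.01% of all genes were called, with a median of -0.03. The gene was Pgap1, which deacylates the anchor, at 40.5 ± 12.2 CPM after α-IgLON5#1, 57.7 ± 10.0 CPM after pCtrl and 45.7 ± 7.61 CPM after PBS. It differed by -0.50 from pCtrl (edgeR, adjusted p = 0.0441) and by -0.17 from PBS (edgeR, adjusted p = 0.664), and by -0.30 from pCtrl without mice 10 and 37 (edgeR, adjusted p = 0.589). The Pgap1 call was lost without α-IgLON5#1 mouse 8 (-0.52), mouse 9 (-0.35) or mouse 17 (-0.48) or pCtrl mouse 10 (-0.49) or mouse 37 (-0.39). In cortex, where 3.46% of all genes were called, edgeR called 0 of 26, with 1 at an unadjusted p under 0.05 and 0 by DESeq2, and the smallest p-values were those of Pgap3 at -0.24 and Pign at 0.14 (edgeR, adjusted p = 0.247 and 0.398). Leaving out single libraries was added for the genes of these lists after seeing the data.

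Likeness to each member was measured as Pearson's r of log2 CPM over the 27 libraries, which share the difference between regions, and is a description without a test. Iglon5 ran most closely with Smarcc2 (r = 0.870), Map7d1 (0.868) and Cdk11b (0.865). Lsamp ran with Cnr1, the cannabinoid receptor of neurons, and Nrip3 (both 0.948) and with Tmeff2 (0.944). Negr1 ran with Tox3 (0.952), Nol4 (0.947) and Man1a2 (0.944), and Ntm with Nlk (0.987), Vopp1 and Osbpl1a (both 0.985). The values for Opcml were lower, with Sgip1 at 0.857 and Tcaf1 and Trim33 at 0.833. Within the family, Negr1 and Ntm had an r of 0.848 and Lsamp and Ntm one of -0.830, and with the 6 group means taken away these were 0.389 and -0.154. By the same deviations from the group means, the genes most like each member were Nudt9 for Iglon5 (0.882), Dnajb14 for Lsamp (0.824), Erlec1 for Negr1 (0.879), Srpk2 for Ntm (0.896) and Mef2a for Opcml (0.817), and Map7d1 (0.863), Cnr1 (0.800), Tox3 (0.867) and Vopp1 (0.893) were still among the top 3 for their members.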

How the data were processed

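RNA of cortex and hippocampus was sequenced from poly(A) libraries (TruSeq stranded mRNA, paired-end). The authors deposited raw counts per gene in a table of 27 libraries, and per the labels the reads were aligned with STAR to GRCm38. The counting program, its strand setting and the annotation release are not given in the sources used here. Of 55487 Ensembl identifiers, 55227 matched GENCODE M21. Tests were run on the 20271 genes that reached 10 counts in 4 or more libraries. After TMM scaling, 1 quasi-likelihood model of the 6 groups was fitted over all 27 libraries with edgeR 4.0.16 in R 4.3.3, with Benjamini-Hochberg adjustment over all tested genes and a threshold of 0.05. DESeq2 1.42.0, other scalings and filters, the composition score as a covariate, libraries left out in turn and the mouse as a block were alternatives. CPM and log2 CPM (prior count 1) describe levels. A seeded simulation with known fold changes was used to test the fit.

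The members and lists were chosen with earlier results of these data known. All members are named. From each list up to 4 called genes with the largest change in α-IgLON5#1 against pCtrl are named, or the 2 with the smallest p-values where none was called, together with the genes most like each member by Pearson's r. A gene that this rule would name is not reported here. Samples were grouped by the region and treatment in their names. Each library is 1 animal of the study. The shared number in the names of a cortical and a hippocampal library was read as the mouse. Their deviations from the group means correlated at -0.0498 to 0.443 over the 13 mice, above 0.1 in 8. Gene levels were counted at 19385642 to 58550621 counts per library, and no authors' comparison columns were present.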

Additional observations from a re-analysis of the deposited data

Results flagged for a closer look

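Of 30 sets of libraries, 5 genes in 6 groups, 4 held a library further from the others than Dixon's 95% limit allows, which chance alone does in about 1 in 20 sets. In the PBS cortex, Iglon5 was 37.8 CPM in mouse 14 and 27.8 to 29.4 CPM in the other 4 mice. In the same group, mouse 38 was lowest for Lsamp, at 340.1 CPM against 362 to 369 CPM, and for Opcml, at 220.8 CPM against 257 to 266 CPM. That cortical library of mouse 38 also held the lowest summed neuronal markers of the 14 cortices, 7653 CPM, and the highest summed hippocampal markers, 172 CPM, and their part in the low levels was not tested. In the α-IgLON5#1 cortex, Opcml was 244.5 CPM in mouse 9 and 234 to 236 CPM in the other 3 mice. Without the cortex of PBS mouse 14, the Iglon5 log2 fold change of α-IgLON5#1 against PBS in cortex was 0.08, beside -0.01 with it.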

How the results depend on the processing

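Of the members' fold changes, 278 alternatives other than leaving out 1 library kept their direction and their side of the threshold, 16 changed sign and 1 passed it. The count of members called moved in 4: DESeq2 called 1 for α-IgLON5#1 against PBS in hippocampus (Lsamp), and a further demand of a fold over 2 left 0 in each of the 3 region contrasts. The mouse as a replicate block left 3 members called in each region contrast and 0 in the interactions, and changed no call. With 1 library left out, the count called was 0 to 1 in hippocampus for α-IgLON5#1 against pCtrl (Ntm, -0.35, adjusted p = 0.0497 without pCtrl mouse 15 and -0.37, adjusted p = 0.0341 without α-IgLON5#1 mouse 16) and 0 to 1 against PBS (Lsamp, -0.29, adjusted p = 0.0147 without PBS mouse 14, -0.29, adjusted p = 0.0140 without PBS mouse 38 and -0.27, adjusted p = 0.0441 without α-IgLON5#1 mouse 16). With the longest transcript as the length, Ntm led in 5 groups and Lsamp in 1.

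The values after a change of sign lay near 0, also for Ntm in hippocampus, where -0.30 (α-IgLON5#1 against pCtrl) and 0.31 (pCtrl against PBS) were the family's widest estimates. For Ntm with the composition score they were 0.0030, -0.012 and -0.015 in hippocampus (α-IgLON5#1 against pCtrl, α-IgLON5#1 against PBS, pCtrl against PBS), and 0.023 and -0.025 in cortex (α-IgLON5#1 against pCtrl, pCtrl against PBS). Without a count filter they were -0.0012 for Iglon5 and -0.0048 for Ntm (hippocampus, against PBS), 0.018 for Opcml (cortex, against pCtrl), and 0.012 for Iglon5 and 0.014 for Ntm (cortex, against PBS). For the last 3, 10 counts in every library gave 0.010, 0.0029 and 0.0058, and a fit of the compared groups alone gave 0.012, 0.0077 and 0.010. With libraries left out in turn, α-IgLON5#1 against pCtrl ran in hippocampus from -0.067 to 0.0096 for Lsamp and in cortex from -0.059 to 0.067 for Iglon5 and -0.031 to 0.0099 for Opcml. Against PBS it ran in hippocampus from -0.022 to 0.060 for Iglon5 and -0.055 to 0.084 for Ntm, and in cortex from -0.088 to 0.082 for Iglon5 and -0.090 to 0.033 for Ntm. pCtrl against PBS ran in hippocampus from -0.087 to 0.0026 for Opcml and in cortex from -0.067 to 0.056 for Iglon5 and -0.094 to 0.034 for Negr1, and the region difference of Opcml in pCtrl mice from -0.060 to 0.0080. The cause of these changes was not tested. With α-IgLON5#1 groups of 4 mice, an Iglon5 change inside the intervals given is not excluded.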
